A study of Mus musculus with 6 samples.

Results

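The Sim1/Nkx2-1 nuclei described here were 399 neuron nuclei of the Foxr2 p53LOF library that carried RNA of Sim1, Nkx2-1 or Sfta3-ps. They were chosen by their measured RNA. A barcode needed at least 1000 UMIs (unique molecular identifiers, each a counted RNA molecule), of which no more than 5% could be mitochondrial. At least 0.2% of its UMIs had to come from the neuronal genes Snap25, Syt1, Rbfox3, Celf4 and Grin2b together. It also needed at least 2 UMIs summed over Sim1, Nkx2-1 and Sfta3-ps, called the rule genes below, and fewer than 3 UMIs of Slc6a3, the dopamine transporter gene. Of the 22125 barcodes of the series, 10379 belonged to this library, 9911 of these passed the limits on UMIs and mitochondrial share, and 2766 were neuron nuclei. The 399 Sim1/Nkx2-1 nuclei were 14.4% of the neuron nuclei (exact binomial interval 13.1 to 15.8). The reference was the 2315 neuron nuclei with 0 UMIs of the rule genes. Of the remaining neuron nuclei, 49 had 1 such UMI, 2 met the rule but for their Slc6a3 UMIs, and 1 had 1 rule UMI and 3 or more of Slc6a3.

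The tissue, labelled brain tumour in every library, came from C57BL/6J mice after in utero electroporation, in which plasmids are driven into progenitor cells of the embryonic brain, here aimed at the ganglionic eminences. Every library carried overexpressed Foxr2, which encodes a forkhead transcription factor, delivered on piggyBac vectors with the broadly active CAG promoter. Foxr2 p53LOF also carried a CRISPR/Cas9 loss of function of p53, whereas Foxr2 alone, whose growths the study calls lesions, did not. The labels give no age of the mice, and the tissue holds nuclei that took up no vector. Nuclei were read with the 10x Multiome assay, which gives RNA and open chromatin (ATAC-seq) of the same nucleus. Counts of 1 library per genotype were analysed, since those of a second Foxr2 alone library were not analysed here. Nuclei are not replicates, so no test was made, and p53 status cannot be told apart from the library. All intervals are at 95% and cover counting error only. For ATAC, 80.7% of the counts in peaks were even, as when both cut ends of a fragment are counted, so ATAC intervals were computed on count pairs.

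Sim1 encodes a transcription factor of the basic helix-loop-helix and PAS family that is needed for neuroendocrine neurons of the paraventricular and supraoptic nuclei and is also expressed in the mammillary region of the posterior hypothalamus. Nkx2-1 is a homeodomain factor that patterns the ventral forebrain, both the basal hypothalamus and the medial ganglionic eminence, and Sfta3-ps is a pseudogene beside it. Foxb1, Lhx1 and Lhx5 are transcription factors known from the mammillary and neighbouring regions, whose projection neurons mostly use glutamate and load it into vesicles with the transporter encoded by Slc17a6.

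The rule genes were held in different combinations. Sfta3-ps was read in 331 of the 399 nuclei (82.96%, 2449 UMIs), Sim1 in 274 (68.7%, 805 UMIs) and Nkx2-1 in 129 (32.3%, 169 UMIs). All 3 genes were read in 74 nuclei, Sim1 with Sfta3-ps in 132 and Nkx2-1 with Sfta3-ps in 54. Sfta3-ps was the only rule gene in 71 nuclei and Sim1 in 67. In what follows, 207 nuclei had Sim1 with Nkx2-1 or Sfta3-ps, 125 had Nkx2-1 or Sfta3-ps without Sim1, and 67 had Sim1 only. In cells that should lack Sim1 its UMIs were rare. A Sim1 UMI was found in 0.0890% of 1124 nuclei rich in immune genes and in 0.170% of 1765 nuclei rich in oligodendrocyte genes, at median depths of 2590.5 and 2578 UMIs against 8419. After thinning every nucleus to 1000 UMIs, the shares were 21.8% in the Sim1/Nkx2-1 nuclei, 0.0890% and 0.113%. The rule chose the Sim1/Nkx2-1 nuclei by these genes, so their own share is no result. The values of the other 2 groups describe background only. The median sum of rule UMIs was 7, and 138 nuclei had 10 or more.

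At the edge of the rule, the 37 nuclei with exactly 2 rule UMIs held 92.5 CPM of Cpne9, where CPM is the count of a gene scaled to 1000000 UMIs summed over a group. The 49 nuclei with 1 rule UMI, just outside, held 23.3 CPM. Drd3 had 0 UMIs in the former and 1 UMI in the latter, and Slc17a6 stood at 414 and 361 CPM.

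Most Sim1/Nkx2-1 nuclei lay together when the neuron nuclei were clustered on RNA without the rule genes or the genes of the lists described below. Of 17 clusters, cluster 4 held 257 of the 399 nuclei (64.4%), and those 257 were 98.5% of its 261 nuclei (interval 96.1 to 99.6). Its leading genes were Gm26973, B230323A14Rik, Mamdc2, Mypn and Gpr83, genes that took part in the clustering and so describe it only. Gm26973 overlaps the rule gene Nkx2-1, and B230323A14Rik overlaps Foxb1, a list gene. The clustering was thus not free of RNA from those loci. This cluster took 161 of the 207 nuclei with Sim1 and Nkx2-1 or Sfta3-ps, 94 of the 125 without Sim1 and 2 of the 67 with Sim1 only. The other 142 nuclei were spread thinly. Cluster 5 had 43 of its 666 nuclei among them, cluster 8 had 19 of 105, cluster 2 had 17 of 196, cluster 10 had 16 of 91, cluster 3 had 14 of 180 and cluster 16 had 13 of 46. Cluster 2 was led by Eya2, Hmga2, Draxin, Rfx4 and Glis3, with Foxr2 at 42.4 CPM and Pomc at 11073 CPM over all its nuclei.

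**Figure D1:**
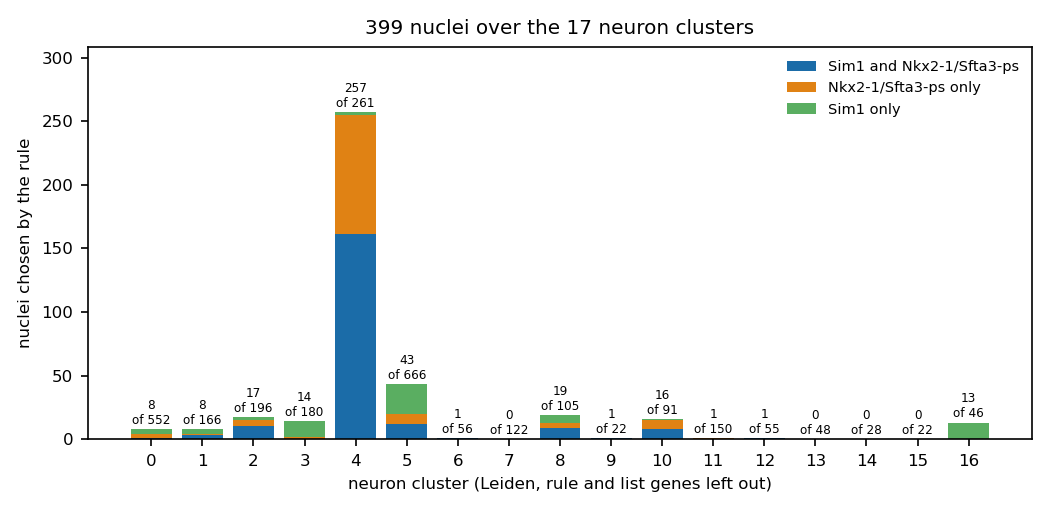
Number of Sim1/Nkx2-1 nuclei (y axis) in each of the 17 neuron clusters (x axis), coloured by the rule genes held, with the count and the size of the cluster above each bar. Cluster 4 holds 257 of the 399 nuclei, and the Sim1-only nuclei (green) lie mostly outside it.

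Markers of other cell types differed between the parts of this set. In cluster 4, 2 of the 257 nuclei had 10 or more UMIs of 7 oligodendrocyte markers and 0 had 10 or more of 7 immune markers. Among the other 142 nuclei the numbers were 25 and 20. The summed oligodendrocyte markers stood at 275 CPM in cluster 4 nuclei, 699 CPM in the other Sim1/Nkx2-1 nuclei and 474 CPM in the reference, and the summed immune markers at 78.0, 302 and 146 CPM. All 16 nuclei in cluster 10 and 18 of the 19 in cluster 8 had 10 or more UMIs of these markers, and both clusters were led by genes of those cell types. The part of these markers in the results was not tested. Values without nuclei with 10 or more of these UMIs, and without clusters 2, 8 and 10, are given in the closing section. Scrublet, a doublet caller, marked 7.02% of the 399 nuclei and 7.78% of the reference. The library shared 140 barcode sequences with Foxr2 alone replicate 1, of which 6 were Sim1/Nkx2-1 nuclei, and 34 with Foxr2 alone replicate 2, of which 0 were. Median UMIs were 8419 in the Sim1/Nkx2-1 nuclei and 10537 in the reference, and median ATAC counts 8835 and 8505.

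The first question was how the RNA of these nuclei differed from that of the other neurons beside them. Genes with at least 10 CPM in either group were compared, and 2-fold was taken as the limit. A gene could thus be compared through the group where it was higher alone, which shapes every count of called genes below. Of 9798 genes, 200 were at least 2-fold higher in the Sim1/Nkx2-1 nuclei (2.04%) and 355 at least 2-fold lower (3.62%), with a median log2 ratio of -0.02 over all genes compared. With no minimum the counts were 2493 and 1598, with neuron genes at 0.4% or more of UMIs 648 were lower, and with the cluster 4 nuclei alone, added after seeing the data, 334 were higher and 1050 lower. The 3 given markers were all higher. Cpne9, which encodes a calcium-dependent membrane-binding protein of the copine family, stood at 236 CPM [221, 252] against 24.6 CPM [22.8, 26.5], a log2 ratio of 3.27 [3.12, 3.41]. It was read in 63.9% of the Sim1/Nkx2-1 nuclei and 16.5% of the reference. Drd3, the dopamine D3 receptor gene, stood at 46.6 CPM [40.1, 53.8] against 2.44 CPM [1.90, 3.08], a log2 ratio of 4.26 [3.85, 4.68]. Slitrk6, which encodes a membrane protein that shapes neurites and synapses, stood at 78.4 CPM [70.0, 87.7] against 10.6 CPM [9.39, 11.8], a log2 ratio of 2.89 [2.66, 3.13]. The pooled reference hides uneven levels. Cluster 9, with 1 of its 22 nuclei in the set, had Cpne9 at 276 CPM. Cluster 7, with 0 of its 122 nuclei in the set, had Cpne9 at 92.8 CPM and Slitrk6 at 59.7 CPM. High Cpne9 and Slitrk6 were thus not confined to the set. Outside cluster 4, Drd3 was highest in cluster 13, at 18.0 CPM. Relatives of the given markers had lower ratios. Of the 6 Slitrk genes compared, Slitrk6 was the 1 at least 2-fold higher (2.04% of all genes compared). Of 9 copine genes Cpne9 was the 1 higher, while Cpne2, Cpne4 and Cpne8 were at least 2-fold lower (3.62% of all genes compared). Drd2 stood at 12.1 CPM against 41.4 CPM, a log2 ratio of -1.77 [-2.22, -1.35] that went to -0.32 when the reference was also held to fewer than 3 Slc6a3 UMIs, and Drd1, Drd4 and Drd5 were below 10 CPM in both groups.

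Transcription factors listed for the mammillary and supramammillary region differed in both directions. Of the 14 genes reported from this list 6 were compared, with a median log2 ratio of 1.13, and 4 were at least 2-fold higher and 2 lower (2.04% and 3.62% of all genes compared). Foxb1 reached 10 CPM in the Sim1/Nkx2-1 nuclei alone, and Lmx1b (1.77 against 20.8 CPM) in the reference alone. The count and the median are thus shaped by the minimum, which Lhx1 passed in both groups. Leaving out the rule genes, among genes with at least 10 CPM that were read in 10% or more of the nuclei of either group, Foxb1 had the highest ratio of the protein-coding genes, at 21.5 CPM [17.2, 26.6] in the Sim1/Nkx2-1 nuclei against 0.530 CPM [0.296, 0.874], a log2 ratio of 5.34 [4.54, 6.24]. The LIM homeodomain factor Lhx1 stood at 52.1 CPM against 12.5 CPM, a log2 ratio of 2.06 [1.80, 2.31]. Of the 17 neuron clusters, Lhx1 was highest in cluster 15, at 101 CPM, with 0 of its 22 nuclei in the set. The homeodomain factors Uncx and Lhx5 were higher by smaller amounts, with log2 ratios of 1.14 [0.69, 1.57] and 1.12 [0.64, 1.57], the latter at 0.98 with the reference under 3 Slc6a3 UMIs and at 2.84 against reference nuclei with Slc17a6 and no GABA genes, described below. The 2 lower members of the list were Lmx1a and Lmx1b, LIM homeodomain factors also known from the midbrain floor and the subthalamic region, with log2 ratios of -1.70 [-2.29, -1.17] and -3.55 [-4.87, -2.50]. Sim2, Barhl1, Barhl2, Foxa1, Foxa2 and Nkx2-4 had between 1 and 4 UMIs each in the 399 nuclei, which is too few to place.

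Several defining genes of other hypothalamic fields were at or near 0, whereas Cartpt, Rorb, Pou3f2 and Agrp were not. Of the paraventricular list, Avp and Crh had 0 UMIs in the Sim1/Nkx2-1 nuclei, Oxt had 1, and Otp, a homeodomain factor of neuroendocrine neurons, had 6. At this depth 0 UMIs allows up to 0.933 CPM. The whole list of 7 genes held 71 UMIs in these nuclei, at 18.0 CPM against 30.8 CPM. The 1 gene of the list that was compared had a log2 ratio of -0.84. Pou3f2, a gene of this list, stood at 13.2 and 8.77 CPM in the 150 and 108 nuclei of 2 finer clusters described below. Its own level in the reference is not given here, so these values do not place it above the reference. Nr5a1 and Fezf1, factors of the ventromedial nucleus, and the lateral hypothalamic peptide genes Hcrt and Pmch also had 0 UMIs. Tac2 had 16 UMIs in 1.75% of the nuclei, at 4.05 CPM against 0.141 CPM. Agrp, an arcuate peptide gene, stood at 7.95 and 17.5 CPM in the 2 finer clusters, in 4.67% and 11.1% of their Sim1/Nkx2-1 nuclei. Over the whole set and over the reference Agrp was below 10 CPM and was not compared. Pomc, the precursor gene of the melanocortins, stood at 62.0 CPM in the Sim1/Nkx2-1 nuclei against 1239 CPM in the reference, but 10 nuclei held 90.7% of the Pomc UMIs of the reference. It stood at 131 CPM in the nuclei rich in immune genes and 140 CPM in those rich in oligodendrocyte genes, with a UMI in 31.2% and 28.8% of them against 37.6% of the deeper Sim1/Nkx2-1 nuclei, so its level was not above background. Without clusters 2, 8 and 10 its log2 ratio went from -4.32 to 0.10. Rorb, which encodes an orphan nuclear receptor, stood at 246 CPM against 148 CPM, a log2 ratio of 0.74 [0.63, 0.84].

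Of the 4 transmitter genes compared, Slc17a6 was at least 2-fold higher and the 3 GABA genes at least 2-fold lower (2.04% and 3.62% of all genes compared). Slc17a6 stood at 474 CPM [452, 496] against 199 CPM [194, 205], a log2 ratio of 1.25 [1.17, 1.32], and was read in 94.2% of the Sim1/Nkx2-1 nuclei against 53.9% of the reference. The GABA synthesis genes Gad1 and Gad2 and the vesicular transporter gene Slc32a1 were lower, with log2 ratios of -3.22 [-3.76, -2.72], -2.77 [-3.08, -2.48] and -2.52 [-3.24, -1.89]. Gad1 and Slc32a1 reached the minimum CPM in the reference alone, at 77.6 and 29.1 CPM, whereas Slc17a6 and Gad2 passed it in both groups. The reference mixes glutamatergic and GABAergic neurons. Against the 1005 reference nuclei with a Slc17a6 UMI and none of these GABA genes, an alternative added after seeing the data, Foxb1 had a log2 ratio of 4.42 and Drd3 of 4.95. All 7 compared dopamine neuron genes were at least 2-fold lower (3.62% of all genes), but 1 of them is Slc6a3, which the rule limits in the Sim1/Nkx2-1 nuclei and not in the reference. When the reference was also held to fewer than 3 Slc6a3 UMIs, the log2 ratio of Th, the rate-limiting enzyme of dopamine synthesis, went from -2.37 to 0.46, that of the vesicular transporter Slc18a2 from -1.81 to 0.45 and that of Ddc, the next enzyme of the pathway, from -2.32 to -0.37. Slc18a2 stood at 3.44 CPM in cluster 4 and at 82.0 CPM in the other Sim1/Nkx2-1 nuclei.

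Of the 7 genes compared from a list of neuropeptides and the growth factor gene Bdnf, 3 were at least 2-fold higher and 2 lower (2.04% and 3.62% of all genes compared), with a median log2 ratio of 0.98. Adcyap1, the PACAP gene, stood at 107 CPM [96.6, 117] against 25.8 CPM, a log2 ratio of 2.04 [1.87, 2.22]. Nts, the neurotensin gene, had a log2 ratio of 2.08 [1.59, 2.57] and Bdnf one of 1.19 [0.997, 1.38]. Against the reference with Slc17a6 and no GABA genes, Adcyap1 went to 1.14, Nts to 1.48 and Bdnf to 0.59. Cck stood just short of the limit at 0.98 [0.61, 1.34]. Sst and Tac1 were lower, with log2 ratios of -2.49 and -1.14. Nts, at 3.46 CPM in the reference, reached the minimum CPM in the Sim1/Nkx2-1 nuclei alone. Sst (3.29 against 18.5 CPM) and Tac1 reached it in the reference alone. This count and its median are thus shaped by the minimum, which Adcyap1 and Bdnf passed in both groups. Of 13 receptor genes for hormones and peptides, 0 were at least 2-fold higher and 8 were lower (2.04% and 3.62% of all genes compared). Among the lower were Tacr3 at -2.001 [-2.60, -1.46] and the estrogen receptor gene Esr1 at -1.12 [-1.64, -0.64]. Tacr3 (7.08 against 28.4 CPM) and Esr1 (9.36 against 20.3 CPM) also reached the minimum in the reference alone. The progesterone receptor gene Pgr stood at 90.1 CPM against 68.9 CPM, a log2 ratio of 0.39 [0.22, 0.55].

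**Figure D2:**
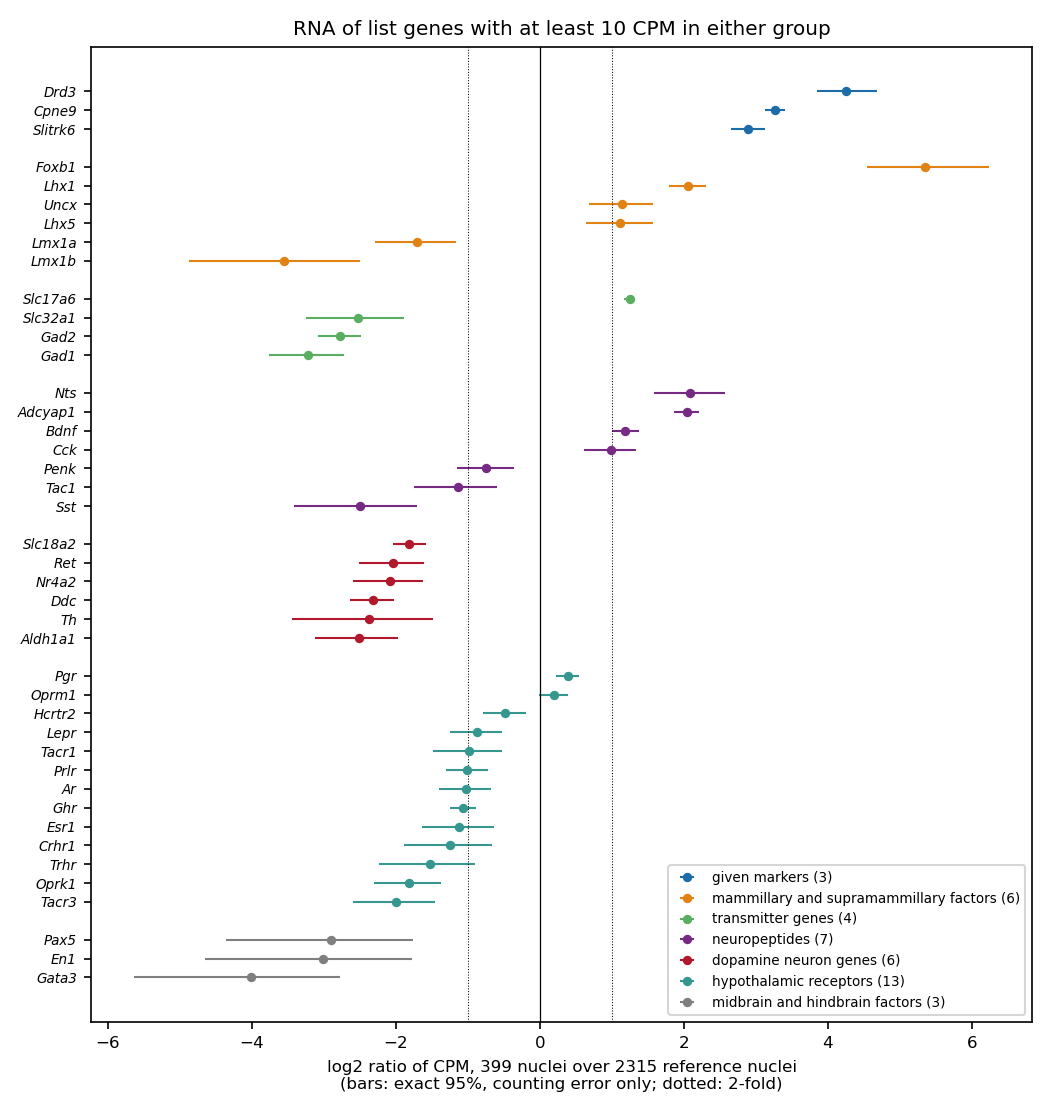
Log2 ratio of CPM, Sim1/Nkx2-1 nuclei over reference (x axis), for the genes (y axis) of 7 lists that had at least 10 CPM in either group, with exact intervals as bars, dotted lines at 2-fold, and Slc6a3 left out because the rule used it. Foxb1, Drd3, Cpne9 and Slitrk6 lie farthest to the right, and Gata3, Lmx1b and Gad1 farthest to the left.

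Beyond the lists, 2 of the highest ratios belonged to RNAs that overlap Nkx2-1 and Foxb1. Gm26973, an antisense RNA that overlaps Nkx2-1 on chromosome 12, had 127 UMIs in the Sim1/Nkx2-1 nuclei (32.1 CPM) and 0 in the reference. The reference was chosen to hold 0 UMIs of Nkx2-1 and Sfta3-ps, so this contrast at the same locus is not independent of the rule. B230323A14Rik, which overlaps Foxb1 on the opposite strand on chromosome 9, stood at 189 CPM against 7.42 CPM, a log2 ratio of 4.67 [4.45, 4.90]. It was read in 63.7% of the Sim1/Nkx2-1 nuclei, where Foxb1 was read in 18.0%. Whether reads of these overlapping pairs were kept apart was not tested. Mamdc2 followed at 94.9 CPM against 4.55 CPM (log2 ratio 4.38 [4.09, 4.68]) and Thbs4, which encodes a matrix thrombospondin, at 15.7 CPM against 0.812 CPM (4.27 [3.56, 5.03]). Mypn, Gpr83, Tmem144, the prostaglandin receptor gene Ptger3 and the neurexophilin gene Nxph4 had log2 ratios between 3.18 and 3.90. The lowest ratios belonged to Bnc2 (-4.86 [-5.99, -3.94]), Pomc, Gata3 (-4.004), Phldb2 (-3.65), Lmx1b, Gad1, Gm14204 (-3.05) and Lhx9 (-2.97). Against the reference with Slc17a6 and no GABA genes, 3 of these changed sign, Gata3 to 2.33, Gm14204 to 3.18 and Pomc to 0.00176. Gata3 and Gm14204 had only 5 and 6 UMIs in the Sim1/Nkx2-1 nuclei (1.27 and 1.52 CPM). Their new ratios thus rest on few UMIs below the 10 CPM minimum and do not place them as higher, and Pomc was level.

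The ATAC counts were not used by the rule and were read next. A peak was compared when at least 10% of the nuclei of either group had a count in it. Of 11945 peaks, 373 were at least 2-fold more accessible in the Sim1/Nkx2-1 nuclei (3.12%) and 20 at least 2-fold less (0.167%), with a median log2 ratio of 0.08. These counts rest on the minimum share of nuclei, since with no minimum 6392 peaks were higher and 20624 lower, and at 20% of nuclei 2 and 1. The more accessible peaks lay away from transcript starts. Only 10.7% of the 373 held one, against 80.8% of all compared peaks, and their median GC content was 49.3% against 66.3%. A peak could be compared through the Sim1/Nkx2-1 nuclei alone, as the 10 highest were. Both contrasts are thus shaped by the minimum share of nuclei and were not tested apart from it. The 10 highest peaks had log2 ratios between 4.83 and 6.31. The first, in an intergenic stretch of chromosome 14, had 36.1 CPM (here ATAC counts per 1000000 counts in peaks) against 0.454 CPM, a log2 ratio of 6.31 [4.86, 7.83], and was open in 13.8% of the Sim1/Nkx2-1 nuclei and 0.216% of the reference. Peak 2, on chromosome 9, had 38.1 CPM against 0.554 CPM (6.10 [4.79, 7.49]), and peak 3, on chromosome 8 at -538.0 kb from the start of Nrp1 (upstream distances are negative), had 35.5 CPM against 0.554 CPM (6.00 [4.67, 7.38]). Peak 8, on chromosome 9 at -106.2 kb from the start of Foxb1, had 46.3 CPM against 1.36 CPM (5.09 [4.21, 5.98]).

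The central 300 bases of 7 peaks are shown because they carry the accessibility results: the 3 highest peaks, the distal peaks nearest to Foxb1 and on the far side of Drd3, and the peaks at Sim1 and Sfta3-ps. They are read from GRCm38 (mm10), plus strand, and capitals mark matches on either strand to CAAGTG (a core bound by NKX2-1), TACGTG (SIM1 with ARNT), TAATTA (LIM homeodomain factors), GTAAACA (forkhead factors) and CACGTG (the E-box).
Peak 1, intergenic, chr14:113935242-113935541: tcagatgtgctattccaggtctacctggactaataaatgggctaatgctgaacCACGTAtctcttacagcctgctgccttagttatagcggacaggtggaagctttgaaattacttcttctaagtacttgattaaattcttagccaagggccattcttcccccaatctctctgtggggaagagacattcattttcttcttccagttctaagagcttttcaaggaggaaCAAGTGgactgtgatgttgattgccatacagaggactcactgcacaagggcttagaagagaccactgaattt
Peak 2, intergenic, chr9:113006068-113006367: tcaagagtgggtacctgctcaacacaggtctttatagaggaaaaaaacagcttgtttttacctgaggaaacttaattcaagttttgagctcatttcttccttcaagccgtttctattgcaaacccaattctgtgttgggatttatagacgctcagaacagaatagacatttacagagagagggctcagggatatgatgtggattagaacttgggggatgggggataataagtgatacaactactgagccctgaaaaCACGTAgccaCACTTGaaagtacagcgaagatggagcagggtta
Peak 3, upstream of Nrp1, chr8:127820433-127820732: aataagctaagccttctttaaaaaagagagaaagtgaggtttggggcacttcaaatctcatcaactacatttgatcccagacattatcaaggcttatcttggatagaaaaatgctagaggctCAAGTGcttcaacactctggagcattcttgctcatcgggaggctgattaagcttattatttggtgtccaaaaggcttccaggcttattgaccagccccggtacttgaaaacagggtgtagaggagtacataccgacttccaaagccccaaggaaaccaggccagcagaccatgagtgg
Peak 8, upstream of Foxb1, chr9:69867030-69867329: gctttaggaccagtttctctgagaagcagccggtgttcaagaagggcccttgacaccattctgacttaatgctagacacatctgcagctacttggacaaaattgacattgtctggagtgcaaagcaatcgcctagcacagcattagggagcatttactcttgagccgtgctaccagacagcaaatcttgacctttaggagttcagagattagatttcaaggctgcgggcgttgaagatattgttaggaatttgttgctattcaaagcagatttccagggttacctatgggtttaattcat
Distal peak past Drd3, intron, chr16:43909831-43910130: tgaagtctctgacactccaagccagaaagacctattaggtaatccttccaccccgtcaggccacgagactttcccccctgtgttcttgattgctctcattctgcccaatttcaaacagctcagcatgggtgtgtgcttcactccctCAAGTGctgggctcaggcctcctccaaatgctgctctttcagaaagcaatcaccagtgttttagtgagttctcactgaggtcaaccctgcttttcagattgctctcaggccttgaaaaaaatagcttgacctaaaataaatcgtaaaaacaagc
Start of Sim1, chr10:50894453-50894752: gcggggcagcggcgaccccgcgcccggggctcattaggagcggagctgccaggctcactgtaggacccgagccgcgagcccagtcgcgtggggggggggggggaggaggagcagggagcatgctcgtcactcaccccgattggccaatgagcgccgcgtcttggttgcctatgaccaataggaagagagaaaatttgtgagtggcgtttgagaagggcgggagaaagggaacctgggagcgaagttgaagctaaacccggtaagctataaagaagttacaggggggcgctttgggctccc
Intron of Sfta3-ps, chr12:56525377-56525676: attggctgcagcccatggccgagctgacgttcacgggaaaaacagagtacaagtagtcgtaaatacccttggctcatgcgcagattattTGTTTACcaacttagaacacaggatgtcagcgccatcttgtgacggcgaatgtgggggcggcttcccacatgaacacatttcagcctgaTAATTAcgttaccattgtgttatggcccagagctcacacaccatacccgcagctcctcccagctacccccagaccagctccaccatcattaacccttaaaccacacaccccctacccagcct
A match is a run of letters and not a measured site. CAAGTG was found in 25.2% of the windows of the 373 more accessible peaks and in 8.54% of all 11945, and, among peaks without a transcript start, in 25.8% and 14.9%. The 373 include peaks compared through the Sim1/Nkx2-1 nuclei alone, so all these shares describe the peaks that the minimum let in. TAATTA was found in 6.43% against 1.30% (6.91% against 3.57% without a transcript start). TACGTG stood at 4.02% against 3.93%, GTAAACA at 3.49% against 1.84%, and CACGTG at 4.29% against 10.4%. Among peaks without a transcript start, these stood at 3.90% against 3.70%, 3.60% [1.88, 6.21] against 2.52%, and 3.90% against 9.09%. The median GC content of those peaks was 48.7% against 57.0%, so base content still differed there. The 3 highest peaks each hold CAAGTG or its complement, as does the distal peak past Drd3, and the Foxb1 distal window and the Sim1 start window hold none of the 5 runs.

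Chromatin at the rule genes was more accessible too. The peak at the start of Sim1 on chromosome 10 (chr10:50894158-50895046) had 39.6 CPM in the Sim1/Nkx2-1 nuclei against 7.61 CPM in the reference, a log2 ratio of 2.38 [1.88, 2.86]. It was more accessible in all 3 subgroups, with 45.2 CPM in nuclei with Sim1 and Nkx2-1 or Sfta3-ps, 30.7 CPM in those with Sim1 only, and 35.4 CPM in the 125 nuclei where Sim1 RNA was not read. An intronic Sim1 peak 16.4 kb past the start had 9.31 CPM against 1.41 CPM (2.72 [1.59, 3.87]). The intron of Sfta3-ps had 17.5 CPM against 4.94 CPM (1.82 [1.12, 2.51]), and 3.41 CPM in the Sim1-only nuclei. A peak in an exon of Gm26973 at -4.4 kb from the start of Nkx2-1 had 12.5 CPM against 4.03 CPM (1.63 [0.85, 2.45]). These last peaks were open in fewer than 10% of the nuclei and were not among the 11945.

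At Cpne9 and Drd3 the peaks with the higher ratios lay outside the starts, and at Slitrk6 the 1 peak lay at the start. A peak in an intron of Mtmr14, at -14.8 kb from the start of Cpne9, had 43.6 CPM against 16.3 CPM (1.42 [1.004, 1.82]), and a peak in an exon 1.1 kb past the start of Cpne9 had 25.6 CPM against 7.41 CPM (1.79 [1.21, 2.34]). For Drd3 the peak 156 kb past the start, in an intron shared by Ccdc191 and Qtrt2, had 40.4 CPM against 1.81 CPM (4.48 [3.73, 5.32]). It lay 16.8 kb past the start of Qtrt2, the nearest coding gene, and no value ties it to Drd3. A peak in an intron of Drd3 itself, 48.1 kb past the start, had 10.5 CPM against 7.05 CPM (0.57 [-0.26, 1.33]) and was open in too few nuclei to be compared. The start of Slitrk6 had 19.2 CPM against 8.36 CPM (1.199 [0.57, 1.80]) and was below the share of nuclei needed for comparison. Among the factors, the start of Foxb1 had 28.8 CPM against 2.87 CPM (3.33 [2.63, 4.03]) and the starts of Lhx1 and Lhx5 stood at 1.01 [0.54, 1.48] and 1.18 [0.75, 1.60]. The start of Slc17a6 had 39.6 CPM against 17.7 CPM (1.16 [0.73, 1.57]), and an intronic peak 40.6 kb past it stood at 1.80 [1.23, 2.33]. Of the 5 peaks with the lowest ratios, between -1.30 and -1.94, 2 lay at the starts of Irx2 and Ephb3, the latter at -0.229 by means of CPM per nucleus.

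**Figure D3:**
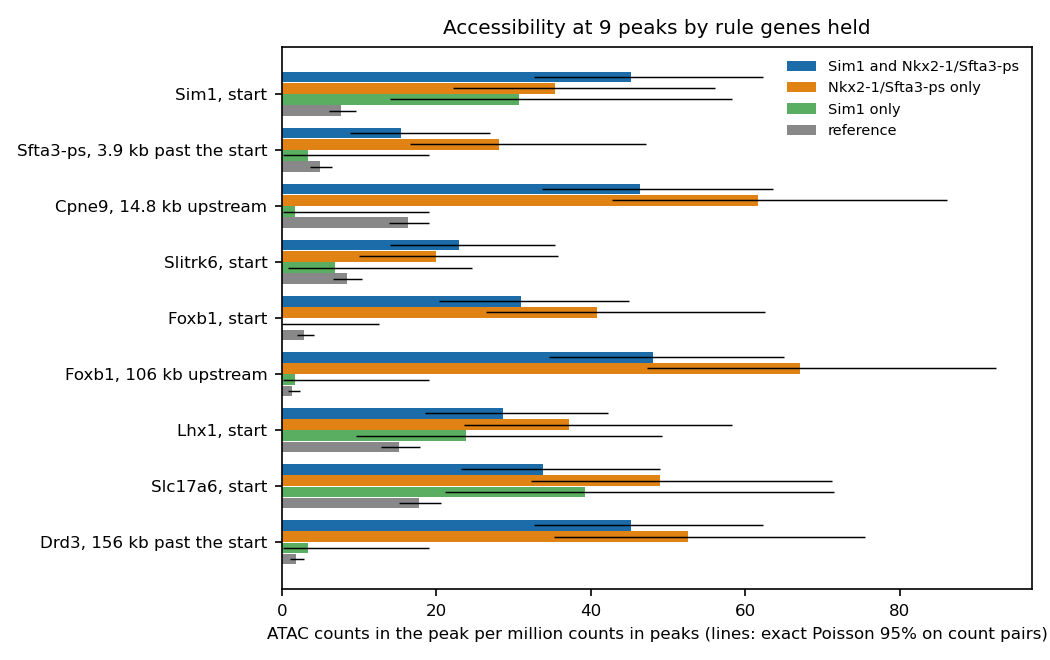
ATAC counts per 1000000 counts in peaks (x axis) at 9 peaks (y axis), for 207, 125 and 67 Sim1/Nkx2-1 nuclei by the rule genes held and 2315 reference nuclei, with exact Poisson intervals on count pairs as black lines. Nuclei with Sim1 only (green) stand with the other Sim1/Nkx2-1 nuclei at the starts of Sim1 and Slc17a6 and near or below the reference at Foxb1, Cpne9 and Drd3.

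Genes with RNA at least 2-fold apart mostly differed the same way in accessibility. ATAC counts were also summed over the peaks of each gene and 5 kb on either side. These windows can take in peaks of neighbouring genes. Of the 612 counts for Cpne9 in the Sim1/Nkx2-1 nuclei, 384 lay at the start of Brpf1. Of the 323 for Lhx1, 190 lay at the start of Aatf. Such values do not measure the named gene alone. Of 16028 genes with enough counts, 96 were at least 2-fold higher (0.599%) and 112 lower (0.699%), and list genes made up 5 of the former and 8 of the latter. How many of the 197 list genes had enough counts is not given, so this is no result about the lists. Of the 200 genes with higher RNA, 165 could be read this way and 156 of them (94.5%) had an ATAC log2 ratio above 0. The share was 56.4% of all genes compared by RNA and 7.42% of those with lower RNA. A peak at least 2-fold more accessible lay within 100 kb of the start for 23.0% of the genes with higher RNA, 4.04% of all and 1.13% of those with lower RNA. Foxb1 stood at 2.54 in gene ATAC and Slc17a6 at 1.06, whereas Gad2 stood at -1.53 and Tcf7l2, a Wnt effector of thalamic neurons, at -1.39. Against the reference with Slc17a6 and no GABA genes, gene ATAC of Slc17a6 went to 0.40 and that of Gad2 to -0.020. Cartpt, a peptide gene, had an RNA log2 ratio of 0.86 and an ATAC log2 ratio of 2.20, and the former went to 3.47 with neuron genes at 0.4% or more of UMIs. Its RNA was not raised throughout the set. It stood at 35.5 CPM in nuclei with Sim1 and Nkx2-1 or Sfta3-ps, and at 15.6 CPM in the reference. Sim1-only nuclei had 1 UMI (1.13 CPM), a log2 ratio to the reference of -3.79 [-9.10, -1.31]. The RNA and ATAC ratios of the whole set are sums over the same 2 groups of nuclei and share their depth.

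**Figure D4:**
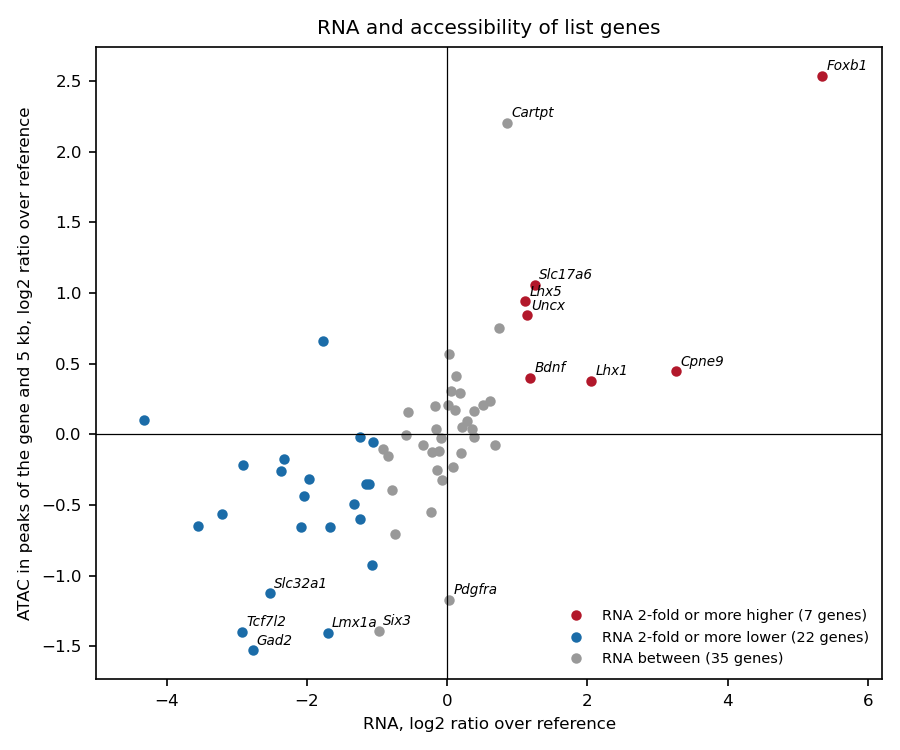
RNA log2 ratio (x axis) against the log2 ratio of ATAC in the peaks of the gene and 5 kb on either side (y axis), Sim1/Nkx2-1 nuclei over reference, for 64 list genes measured in both. All 7 genes with RNA at least 2-fold higher lie above 0 on the ATAC axis, and 20 of 22 with RNA at least 2-fold lower lie below it. The ATAC windows can hold peaks of neighbouring genes, as for Cpne9 and Lhx1.

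Within the set, the 67 nuclei with Sim1 only stood apart from the rest. Only 2 of them lay in cluster 4, so the split by rule genes cannot be told apart from that by cluster. In the 257 cluster 4 nuclei and the other 142, Cpne9 stood at 376 and 88.3 CPM. Drd3 stood at 75.1 and 16.2 CPM and Foxb1 at 35.8 and 6.27 CPM, in the same order. The ratios of the whole set for these genes thus rest mostly on cluster 4. Cpne9 stood at 301 CPM in nuclei with Sim1 and Nkx2-1 or Sfta3-ps, at 299 CPM in those without Sim1 and at 15.8 CPM in those with Sim1 only, below the 24.6 CPM of the reference. Drd3 stood at 63.6, 52.2 and 1.13 CPM and Slitrk6 at 95.7, 106 and 6.75 CPM, in the same order. Foxb1 stood at 22.2, 37.7 and 1.13 CPM, and the log2 ratio of Sim1-only nuclei to those with Sim1 and Nkx2-1 or Sfta3-ps was -4.30 [-9.64, -1.75]. Lhx1 stood at 74.5, 46.4 and 7.88 CPM. The given markers and Foxb1 were thus as low in Sim1-only nuclei as in the reference or nearly so. Other genes did not separate the subgroups in this way. Slc17a6 stood at 480, 490 and 441 CPM, Uncx at 15.8, 12.6 and 14.6 CPM, and Bdnf at 64.1, 87.9 and 93.4 CPM. The receptor genes Prlr and Hcrtr2 went the other way, with 77.7 and 78.8 CPM in Sim1-only nuclei against 15.3 and 15.8 CPM in nuclei with Sim1 and Nkx2-1 or Sfta3-ps. Sim1-only nuclei were deeper, with a median of 11359 UMIs against 8185 in the nuclei with Sim1 and Nkx2-1 or Sfta3-ps.

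Several peaks split the set along the same line. The 373 more accessible peaks took 1.24% of the ATAC counts of nuclei with Sim1 and Nkx2-1 or Sfta3-ps, 1.33% in those without Sim1, 0.408% in Sim1-only nuclei and 0.294% in the reference. Because the first groups make up most of the set that chose these peaks, the order describes them only. The share was 1.52% in the cluster 4 nuclei. The start of Foxb1 had 0 ATAC counts in Sim1-only nuclei, and the peak upstream of Cpne9 had 1.71 CPM. The starts of Lhx1 and Lhx5 did not follow. That of Lhx1 stood at 28.6 CPM in nuclei with Sim1 and Nkx2-1 or Sfta3-ps, 37.2 CPM in those without Sim1 and 23.9 CPM in Sim1-only nuclei, against 15.2 CPM in the reference, and that of Lhx5 at 38.3, 40.8 and 34.1 against 16.9 CPM. For Sim1-only nuclei over the reference the intervals, [-0.69, 1.73] and [-0.075, 1.93] as log2 ratios, held 0. Of the given markers, Cpne9, Drd3 and Slitrk6 were not used by the rule, and these 3 were above the reference in the nuclei with Nkx2-1 or Sfta3-ps and not above it in the 67 with Sim1 only.

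**Figure D5:**
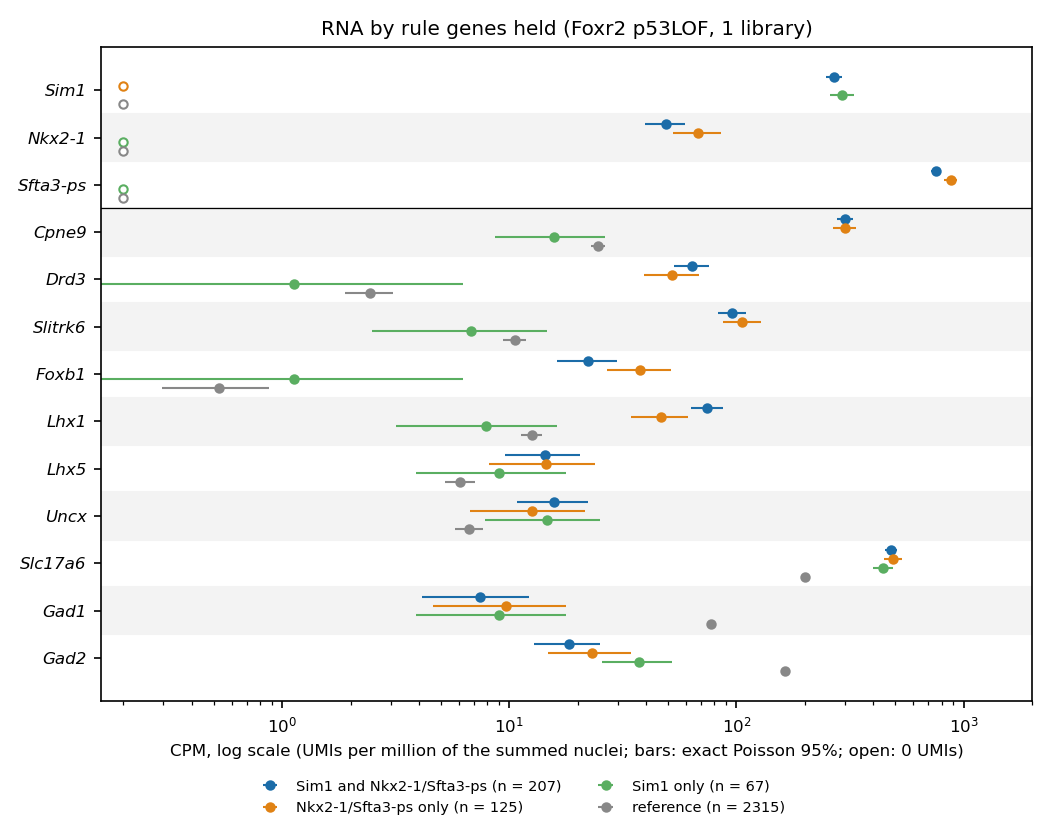
CPM on a log axis (x axis) of 13 genes (y axis) in Sim1/Nkx2-1 nuclei by the rule genes held and in the reference, with exact Poisson intervals as bars and open points for 0 UMIs, and the rule genes above the line. Sim1-only nuclei (green) lie near the reference for Cpne9, Drd3, Slitrk6, Foxb1 and Lhx1, and near the other Sim1/Nkx2-1 nuclei for Uncx, Slc17a6 and Gad1.

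The Sim1-only nuclei were themselves mixed. Of the 67, 23 lay in cluster 5, 13 in cluster 16 and 12 in cluster 3. The 13 in cluster 16 had Sim1 at 363 CPM and Slc17a6 at 670 CPM, and Onecut1, a transcription factor gene that took part in the clustering, at 48.9 CPM. They had 0 UMIs of Foxb1, Slitrk6 and Cpne9, and the start of Sim1 was open at 50.3 CPM (5 ATAC counts). In cluster 3 the 12 nuclei had Slc17a6 at 457 CPM and 0 UMIs of Lhx1, and the start of Sim1 had 0 counts. The counts at this start are too few to tell the 2 groups apart.

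The leading cluster also held structure of its own. At a finer resolution of 1, added after seeing the data, it came apart into 2 clusters with 150 and 108 Sim1/Nkx2-1 nuclei, of which 150 and 107 came from the leading cluster, at median depths of 7203 and 7885 UMIs. The rule genes, Cpne9 and Lhx1 were close in both. Sim1 stood at 228 and 194 CPM, Cpne9 at 383 and 363 CPM, and Lhx1 at 75.9 and 84.4 CPM. Other list genes, which did not take part in the clustering, differed. Rorb stood at 381 CPM in the first and 105 CPM in the second, a log2 ratio of 1.85 [1.53, 2.19], and its gene ATAC at 0.80 [0.14, 1.53]. Adcyap1 stood at 201 and 98.6 CPM (1.03 [0.67, 1.40]). Higher in the second were the opioid receptor gene Oprm1, at 15.0 and 97.5 CPM (-2.70 [-3.54, -1.94]), Nts, at 7.95 and 51.5 CPM (-2.70 [-3.91, -1.65]), and Drd3, at 52.1 and 103 CPM (-0.98 [-1.48, -0.50]). Drd2 had 0 UMIs in the first and 14 in the second. Among the genes that drove the clustering, given as a description, Ttn had 385 UMIs in the first (340 CPM) and 0 in the second, and Zmat4, Ptger3, Fstl5, Sall3 and Col19a1 were also high there. Postn, Slit3, Col25a1, Kitl and Hmcn1 were high in the second. The ATAC of Zmat4, Sall3 and Col19a1 was higher in the first by log2 ratios of 1.53 [0.62, 2.47], 2.01 [1.05, 3.00] and 1.39 [0.57, 2.20], and that of Kitl and Col25a1 higher in the second, at -2.31 [-4.78, -0.42] and -1.07 [-1.77, -0.42]. That of Ttn stood at 2.63 [0.11, 5.48]. The intervals of the gene ATAC of Ptger3, Fstl5, Postn, Slit3 and Hmcn1, and of Oprm1, Nts, Drd2 and Drd3, held 0, at log2 ratios such as 0.15 [-0.93, 1.17] for Hmcn1 and 0.011 [-1.04, 1.17] for Oprm1.

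The electroporated gene was at a like level in both groups. Foxr2 stood at 15.4 CPM [11.8, 19.8] in the Sim1/Nkx2-1 nuclei and 14.1 CPM in the reference, a log2 ratio of 0.13 [-0.29, 0.52], and the transgene could not be told apart from the endogenous gene. Nuclei rich in immune genes, as background, had 22.8 CPM. ATAC counts on the vector sequences were found in 0 of the 257 cluster 4 nuclei, which allows a share of up to 1.43%, in 5 of the other 142 and in 53 of the 2315 reference nuclei (2.29% [1.72, 2.98]). The share was 0.801% in nuclei rich in immune genes and 3.17% in those rich in oligodendrocyte genes, so the reference was not above both. GFP RNA was read in 44.7% of the cluster 4 nuclei (78.0 CPM), 49.6% of all Sim1/Nkx2-1 nuclei (87.3 CPM) and 56.8% of the reference (98.8 CPM). In the shallower nuclei rich in immune genes it was read in 40.9% at 194 CPM, so its level in the neurons was not above background. Proliferation genes were low, with Mki67 at 8.60 CPM against 7.80 CPM and Top2a at 13.4 CPM against 15.1 CPM.

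The same rule in Foxr2 alone replicate 1 found other neurons. It took 114 of 5817 neuron nuclei (1.96%), of which 0 had a Sim1 UMI, which allows up to 3.36 CPM, while Sfta3-ps stood at 594 CPM and Nkx2-1 at 41.0 CPM, against 620 and 42.8 CPM in Foxr2 p53LOF. The rule chose both sets by these genes, so these levels are no result. Over all neuron nuclei, Sfta3-ps stood at 12.7 CPM in Foxr2 alone against 75.3 CPM in Foxr2 p53LOF, and Nkx2-1 at 0.963 against 5.16 CPM. In the 114 nuclei Foxb1, Lhx1 and Slc17a6 had 0 UMIs. Gad1 stood at 314 CPM and Gad2 at 244 CPM, and Lhx6 and Lhx8, factors of the medial ganglionic eminence, at 37.3 and 92.9 CPM against 0.253 CPM and 0 UMIs in the Sim1/Nkx2-1 nuclei of Foxr2 p53LOF. Cpne9 stood at 10.9 CPM, Drd3 at 3.64 CPM and Slitrk6 at 7.29 CPM. Slc17a6 was thus read in 94.2% of the nuclei chosen in Foxr2 p53LOF, and Gad1 and Gad2 in 83.3% and 85.1% of those chosen in Foxr2 alone, while Foxb1 and Lhx8 were each read in a minority, 18.0% of the former and 32.5% of the latter. The difference between the 2 libraries was not tested. Genotype, library and the tissue taken cannot be told apart.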

How the data were processed

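RNA and ATAC were read in the same nuclei of tissue labelled brain tumour. The authors ran Cell Ranger ARC 2.0.0 on mm10, per the submitters' processing notes, and deposited raw counts: UMIs per gene and cut-site counts per peak. Counts of Foxr2 alone replicate 2 were not analysed here, and its barcodes served only to count shared barcodes. Depth ran from 1008 to 559527 UMIs per usable nucleus.

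The nuclei and the 25 gene lists were chosen with earlier results of these data known. Counts were summed over nuclei and set as CPM, with exact Poisson intervals, and log2 ratios with exact conditional binomial intervals, for ATAC on counts divided by 2 and rounded up. No test was made, with 1 library per genotype analysed. Ratios against 0 counts use a floor of 3 counts. The text names the 12 highest and 8 lowest genes with at least 10 CPM and UMIs in 10% of nuclei, the 10 highest and 5 lowest peaks, and any list gene, save for a gene that is not reported here but stays in counts over all lists. Other genes given as cluster leaders were named after their values were seen. Clustering (scanpy 1.11.5, 2000 variable genes, 30 components, 20 neighbours, Leiden resolution 0.5, seed 100) left out 210 genes, the listed ones among them. Doublets were marked with Scrublet and kept. Intervals came from scipy 1.17.1 under Python 3.11.15, and the ratio steps were tested on simulated data.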

Additional observations from a re-analysis of the deposited data

Results flagged for a closer look

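Of 59 list genes compared in both libraries, 7 had ratios of at least 2-fold in opposite directions between the nuclei chosen by the rule and their reference (11.9%), as did 112 of all 8964 genes compared in both (1.25%). The lists were chosen with earlier results of these data known. The differences between the libraries were not tested, and 1 library per genotype was analysed. As log2 ratios, Drd3 stood at 4.256 in Foxr2 p53LOF and -1.988 in Foxr2 alone, where it had 4 UMIs in the chosen nuclei. Gad1 stood at -3.216 and 1.655, and Sst, the somatostatin gene, at -2.492 and 2.125. The copine gene Cpne4 stood at -1.555 and 2.94, and the homeodomain factor gene Prox1 at -1.066 and 3.515. The receptor genes stood apart likewise, Tacr3 at -2.001 and 6.52 and Esr1 at -1.119 and 1.453.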

How the results depend on the processing

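No paired analysis was possible because counts of 1 library per genotype were analysed and no test was made. Over all alternatives, 433 of 553 RNA values of 43 single genes moved by less than their interval, 114 moved and 6 changed sign. Counts of list genes are not in this tally. For ATAC of genes the numbers were 188, 22 and 0 of 210, and for peaks 366, 12 and 0 of 378. Against 14.4% of neurons, 200 and 355 genes, 373 and 20 peaks (higher and lower) and 64.4% in the leading cluster, neuron genes at 0.4% or more gave 19.1%, 648 lower genes, 580 and 44 peaks and 79.8%. At least 3 rule UMIs gave 13.1%, and the cell limits of the study 31 lower peaks. Means of CPM per nucleus gave 65 lower peaks and 14 list genes lower by ATAC (8 before). A minimum of 20 CPM or 20% of nuclei left 2 and 1 peaks. No minimum gave 2493 and 1598 genes, 6392 and 20624 peaks, and 24 and 63 list genes by RNA (12 and 36 before). The lists hold 197 genes, the rule genes among them, and were chosen with earlier results of these data known. How many list genes each setting compared is not given. The list-gene counts here and below thus cannot be read against the shares over all genes and are no result about the lists. With reference Slc6a3 under 3, Slc18a2 turned to 0.45 and Th to 0.46.

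The following were chosen after seeing the data. A reference with Slc17a6 and no GABA genes gave 38 lower peaks and 2 list genes lower by ATAC, and turned Gata3 to 2.33, Gm14204 to 3.18 and Pomc to 0.00176. Gata3 and Gm14204 had only 5 and 6 UMIs in the Sim1/Nkx2-1 nuclei. The leading cluster alone gave 9.29% of neurons, 334 and 1050 genes, 782 and 64 peaks, and 8 and 16 list genes by ATAC. Leaving out nuclei with 10 or more glial or immune UMIs gave 71.8% in the leading cluster. Leaving out clusters 2, 8 and 10 gave 74.1%, and Pomc 0.097. Leiden resolution 1 gave 37.6%. The cause of these changes was not tested, other than fewer or more features and nuclei by construction.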
